A study of Mus musculus with 8 samples.

Results

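The set comprises 38 genes that act in protein folding in the endoplasmic reticulum or in the response to stress of that compartment. They were taken by gene name from the annotation in the array files, older names included, so that Manf was found as Armet, Ero1a and Ero1b as Ero1l and Ero1lb, Dnajc3 as Dnajc3a and Ppp1r15a as Myd116. All 38 were on the array and all 38 were well above background on each of the 8 arrays, among 17049 genes tested. Each gene is described by its brightest probe, and its level is the log2 signal relative to the 75th percentile of the same array.

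Secreted and membrane proteins enter the endoplasmic reticulum through the Sec61 channel and are folded there by chaperones and by enzymes that form disulfide bonds, and chains that fail to fold are returned to the cytosol and degraded. When unfolded chains build up, 3 membrane sensors, Ern1 (IRE1), Eif2ak3 (PERK) and Atf6, start the unfolded protein response. Ern1 splices the mRNA of the transcription factor Xbp1, Atf6 is cut to release a transcription factor, and Eif2ak3 phosphorylates a translation initiation factor, which lowers translation in general and raises that of Atf4. Hepatocytes secrete most plasma proteins and hold a large endoplasmic reticulum.

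Liver RNA was measured in C57BL/6J and in KKAy mice, in each strain at 4 and at 11 weeks of age, with 2 arrays in each of these 4 groups. KKAy mice carry the yellow Ay allele of agouti on the KK background, and the labels give their state as diabetes at both ages and that of C57BL/6J as normal. All groups ate standard chow and had been fasted for 13.5 hours. The labels give no sex and do not name the animals, so it is unknown whether replicates are separate mice, and p-values then cover only the spread between these samples.

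The 75th percentile of signal lay between 476 and 1192 units per array, 56.3% to 66.7% of spots were well above background, and no spot was saturated (0 on each array). Both 4-week groups lay on slide 1 and both 11-week groups on slide 2, so a difference by age cannot be told apart from one by slide, whereas both strain comparisons lie within a slide. C57BL/6J took positions 1 and 2 and KKAy positions 3 and 4 on both slides, so strain and position cannot be told apart. Hepatocyte markers fitted the labelled tissue: 9 of the 10 listed were on the array and all 9 were well above background on every array, with a summed signal of 1900 to 2650, 2770 to 2790, 2220 to 2770 and 2640 to 3170 times the 75th percentile in C57BL/6J at 4 weeks, C57BL/6J at 11, KKAy at 4 and KKAy at 11. The RNA is of whole liver, in which fewer cells of a type and less RNA per cell cannot be told apart.

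Promoter sequence is shown for 4 genes that carry the largest differences described below or stand for their role, since many genes of the response share short elements near their start. The ER stress response element (ERSE), bound by NF-Y and Atf6, reads CCAAT and CCACG with 9 bases between. The related ERSE-II reads ATTGG and CCACG with 1 base between, the Xbp1 site of the unfolded protein response (UPRE) TGACGTGG, and the C/EBP-Atf4 response element (CARE) TTGCATCA. Both strands of the 250 bases before each RefSeq start (GRCm38.p6) were searched for these exact letters, so variants with a changed letter were not counted. No match overlapped one of another element. The stretches below run 5′ to 3′ on the gene's strand, and capitals mark the fixed letters of an ERSE match on either strand or a CARE match. They lie at chr2:34771840-34772089, plus strand (Hspa5), chr10:75893148-75893397, plus strand (Derl3), chr16:17132384-17132633, minus strand (Sdf2l1) and chr2:119350992-119351241, plus strand (Chac1).
Hspa5: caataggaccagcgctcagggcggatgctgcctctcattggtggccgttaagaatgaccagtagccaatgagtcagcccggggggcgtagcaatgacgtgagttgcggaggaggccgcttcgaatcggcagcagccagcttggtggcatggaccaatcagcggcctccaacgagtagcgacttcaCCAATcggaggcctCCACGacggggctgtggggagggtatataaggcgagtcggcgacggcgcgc
Derl3: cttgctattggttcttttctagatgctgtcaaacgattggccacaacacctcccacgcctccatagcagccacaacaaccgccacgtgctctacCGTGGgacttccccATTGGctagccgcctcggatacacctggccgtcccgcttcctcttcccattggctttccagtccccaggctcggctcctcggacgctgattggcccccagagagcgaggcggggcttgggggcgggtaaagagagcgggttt
Sdf2l1: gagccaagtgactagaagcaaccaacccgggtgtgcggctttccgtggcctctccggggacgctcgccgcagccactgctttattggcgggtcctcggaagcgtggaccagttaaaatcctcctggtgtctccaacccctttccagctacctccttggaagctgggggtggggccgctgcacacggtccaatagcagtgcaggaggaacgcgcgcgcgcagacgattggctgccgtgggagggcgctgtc
Chac1: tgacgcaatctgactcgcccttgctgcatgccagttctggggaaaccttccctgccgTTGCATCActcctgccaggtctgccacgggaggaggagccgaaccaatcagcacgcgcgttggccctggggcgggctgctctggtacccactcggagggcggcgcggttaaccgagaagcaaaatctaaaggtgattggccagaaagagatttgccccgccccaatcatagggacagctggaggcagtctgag

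Of the 38 genes, 33 had a promoter in the RefSeq table, and Hyou1, Manf, Derl1, Atf6 and Sec61a1 did not. An ERSE match was present in 10 of the 33 (30.3%), against 35 of all 27025 genes with a promoter in the table (0.130%), counted likewise per gene. The element was defined on promoters of folding genes, so this share is a description of the set. The matches, each written on the strand that reads CCAAT first with the fixed letters in capitals, differ in the 9 bases between.
Hspa5: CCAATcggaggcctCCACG
Hsp90b1 (farther match): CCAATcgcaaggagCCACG
Hsp90b1 (nearer match): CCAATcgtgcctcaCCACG
Dnajc3: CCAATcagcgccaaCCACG
Creld2: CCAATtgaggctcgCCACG
Calr: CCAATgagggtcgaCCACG
Canx: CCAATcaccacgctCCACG
Pdia6: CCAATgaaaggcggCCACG
Ero1b: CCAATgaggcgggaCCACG
Derl3: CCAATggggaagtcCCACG
Syvn1: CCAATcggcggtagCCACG

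The Hspa5 match ended 46 bases before the start and that of Syvn1 25 bases before it, while those of Derl3 and Ero1b, on the opposite strand, lay 137 and 182 bases away. Herpud1 held the set's 1 ERSE-II match, ATTGGgCCACG, 41 bases before its start (0.0370% of all genes hold one). A CARE match stood in Herpud1, Atf3 and Chac1 (3 of 33, against 0.918% of all genes), and the UPRE letters stood in 0 of 33 (0.603% of all genes). Sdf2l1 held no exact match of the 4 elements in this window.

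At 11 weeks, livers of KKAy mice had more transcript of many folding, disulfide, degradation and Atf4-branch genes than livers of C57BL/6J. In the limma fit over all 8 arrays, 16 of the 38 genes were higher in KKAy and 0 lower at a Benjamini-Hochberg adjusted p under 0.05, against 9.95% of all genes tested higher and 11.5% lower. At an unadjusted p under 0.05, 22 were higher and 0 lower, against 16.2% and 18.0% of all genes. The median difference of the 38 was 0.59 on the log2 scale, against -0.00 over all genes tested, and 36 of 38 lay above 0. The calls were spread over 4 of 11 chaperones and co-chaperones (median 0.46), 4 of 6 disulfide enzymes (0.71), 4 of 8 degradation genes (0.67) and 4 of 7 genes of the Atf4 branch (0.69). Differences between the roles were not tested.

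The 16 calls rest on few arrays, and calls over all genes also fell in each smaller fit below. Fitted on the 4 arrays of slide 2 alone, 9 of the 38 were called higher. Of all 17049 genes 2120 were called there in either direction, against 3660 in the fit over 8 arrays. Without 1 C57BL/6J array of 11 weeks 8 were called, whichever of the pair was left out, and without replicate 2 of KKAy at 11 weeks 10. Chac1, Derl3, Sdf2l1, Atf3, Pdia6, Dnajb9, Ero1a and Edem2 kept an adjusted p under 0.05 with any 1 of the 8 arrays left out. Of these, Ero1a rests on its brightest probe, since its second probe gave -0.18 and the mean of both was not called.

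At 4 weeks the picture was another. Sdf2l1, Derl3 and Dnajc3 were lower in KKAy and Ero1a and Chac1 higher, with the same fit and threshold. These 5 of 38 called, 3 lower and 2 higher, compare with 15.4% of all genes tested called in either direction, so the count lay near the background. The median of the 38 was -0.10. On spike-in scaling, which placed the median of all genes at 0.37 in place of 0.01 at this age, the median of the 38 was 0.25 and the counts were 1 lower and 3 higher. Without any 1 array the lower count was 2, and the higher count fell to 1 without either C57BL/6J array or replicate 2 of KKAy at 4 weeks.

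**Figure D1:**
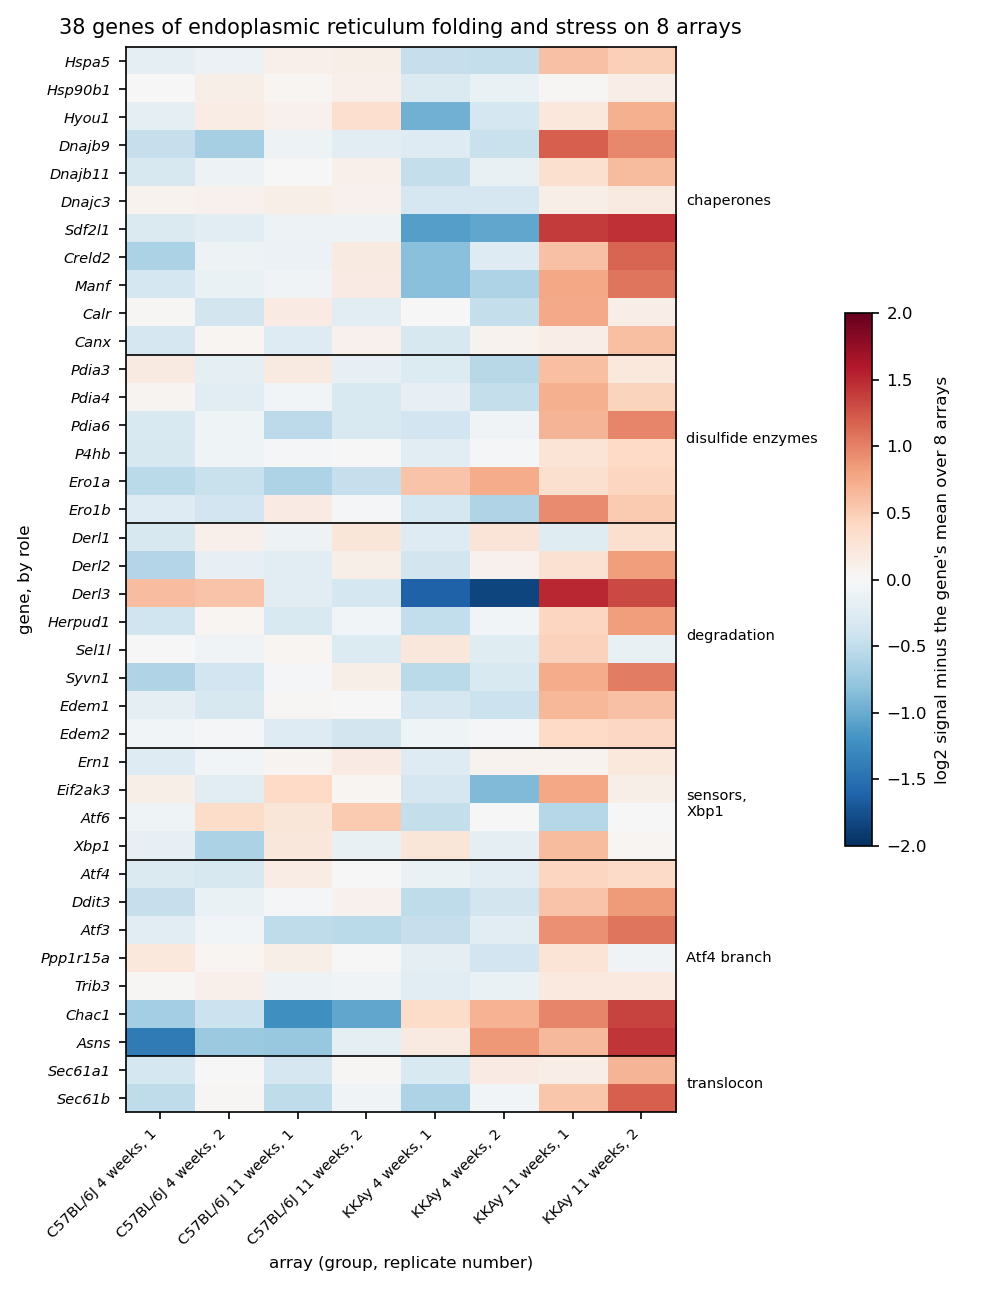
Deviation of each of the 38 genes (rows, by role) from its own mean over the 8 arrays, in log2 units, on each array (columns, 2 per group); red is above and blue below the mean. The last 2 columns, KKAy at 11 weeks, are the reddest for 25 of the 38 genes, where both arrays lie above the other 6, and the KKAy columns of 4 weeks are the lowest pair for 12.

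For 25 of the 38 genes both KKAy arrays of 11 weeks lay above the other 6 arrays, against 14.7% of all genes. For 12 both KKAy arrays of 4 weeks lay below the other 6, against 6.87% of all genes. Hspa5, Dnajc3, Sdf2l1, Manf, Pdia3, Derl3, Edem1 and Trib3 showed both orders at once, 8 of 38 against 1.41% of all genes. These orders carry no test. The median deviation of the 38 genes from their own means was -0.33 and -0.21 on the KKAy arrays of 4 weeks and 0.56 and 0.56 on those of 11 weeks, with the C57BL/6J arrays between -0.27 and -0.01.

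Among the chaperones, Hspa5 encodes BiP, the main Hsp70 chaperone of the compartment, which also binds and holds the sensors. Its level was 6.51 and 6.58 in C57BL/6J and 6.24 and 6.23 in KKAy at 4 weeks, and 6.81 and 6.82 against 7.29 and 7.18 at 11 weeks. The 4 groups did not overlap, with KKAy lowest at the younger age and highest at the older. KKAy was higher by 0.42 at 11 weeks (SE 0.10, limma adjusted p = 0.0307), whereas the difference of -0.31 at 4 weeks did not pass (adjusted p = 0.0952). The 11-week call was lost without any 1 of the 8 arrays (adjusted p 0.0614 to 0.17). The probe of Hspa5 lies at chr2:34598119-34598178 on mm8, the build of the file annotation.

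Sdf2l1, a partner of BiP that keeps unfolded chains from clumping, showed the largest shift of any chaperone. It read 1.80 and 1.86 in C57BL/6J and 0.99 and 1.05 in KKAy at 4 weeks, then 1.99 and 1.99 against 3.49 and 3.56. Replicates lay within 0.1 of each other and no groups overlapped. KKAy was 1.75-fold lower at 4 weeks (log2 difference -0.81, SE 0.09, limma adjusted p = 0.00356) and 2.9-fold higher at 11 weeks (1.53, SE 0.09, adjusted p = 0.000339). The 4-week call was lost on spike-in scaling. The interaction, which is the strain difference at 11 weeks minus that at 4 weeks, was 2.34 (SE 0.13, adjusted p = 0.00204).

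Manf, a small secreted protein kept in the compartment by BiP, had the same order of groups. It read 3.67 and 3.90 in C57BL/6J and 3.19 and 3.41 in KKAy at 4 weeks, and 3.96 and 4.19 against 4.80 and 5.10 at 11 weeks. KKAy was again below every other array at 4 weeks and above every other at 11. The 11-week difference was 0.87 (SE 0.17, limma adjusted p = 0.0163) and the interaction 1.35 (SE 0.24, adjusted p = 0.0414), while the 4-week difference of -0.48 did not pass. Leaving out either C57BL/6J array or replicate 2 of KKAy at 11 weeks ended the 11-week call (adjusted p up to 0.113), and leaving out any 1 array ended the interaction call (adjusted p 0.0635 to 0.188).

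Dnajb9, a J-domain co-chaperone that hands chains to BiP, stood apart in KKAy at 11 weeks. Its levels were 2.39 and 2.17 in C57BL/6J and 2.59 and 2.40 in KKAy at 4 weeks, and 2.74 and 2.63 against 4.04 and 3.80 at 11 weeks. The first 3 groups lay within 0.6 of each other and the KKAy arrays of 11 weeks stood over 1 above them. KKAy was 2.35-fold higher at 11 weeks (log2 difference 1.24, SE 0.14, limma adjusted p = 0.0027), and all 3 probes of the gene gave 1.24 to 1.34. The interaction of 1.02 did not pass (adjusted p = 0.0558).

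Dnajc3, a co-chaperone of BiP that also restrains Eif2ak3, differed at the younger age. It read 3.94 and 3.96 in C57BL/6J against 3.54 and 3.54 in KKAy at 4 weeks, and 3.99 and 3.96 against 4.00 and 4.06 at 11 weeks. The KKAy arrays of 4 weeks lay 0.4 below the next lowest array, while those of 11 weeks lay above the other 6 by at most 0.1. The 4-week difference was -0.41 (SE 0.09, limma adjusted p = 0.0339) and was lost without any 1 array (adjusted p 0.055 to 0.158). At 11 weeks the difference was 0.06, and its 4 probes ran from -0.13 to 0.07.

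The other 6 chaperones were not called between strains at either age. Their 11-week differences were 0.01 for Hsp90b1 (Grp94), 0.25 for Hyou1, 0.42 for Dnajb11, 0.84 for Creld2, and 0.47 and 0.46 for the lectin chaperones Calr and Canx, with adjusted p from 0.111 to 0.976. Hsp90b1, an abundant chaperone of secreted proteins, lay between 6.20 and 6.62 on all 8 arrays, a narrow span beside the 1.06 of Hspa5. Creld2, a folding factor, ran from 4.05 to 6.05, and its replicates differed by 0.30 to 0.57 within groups.

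**Figure D2:**
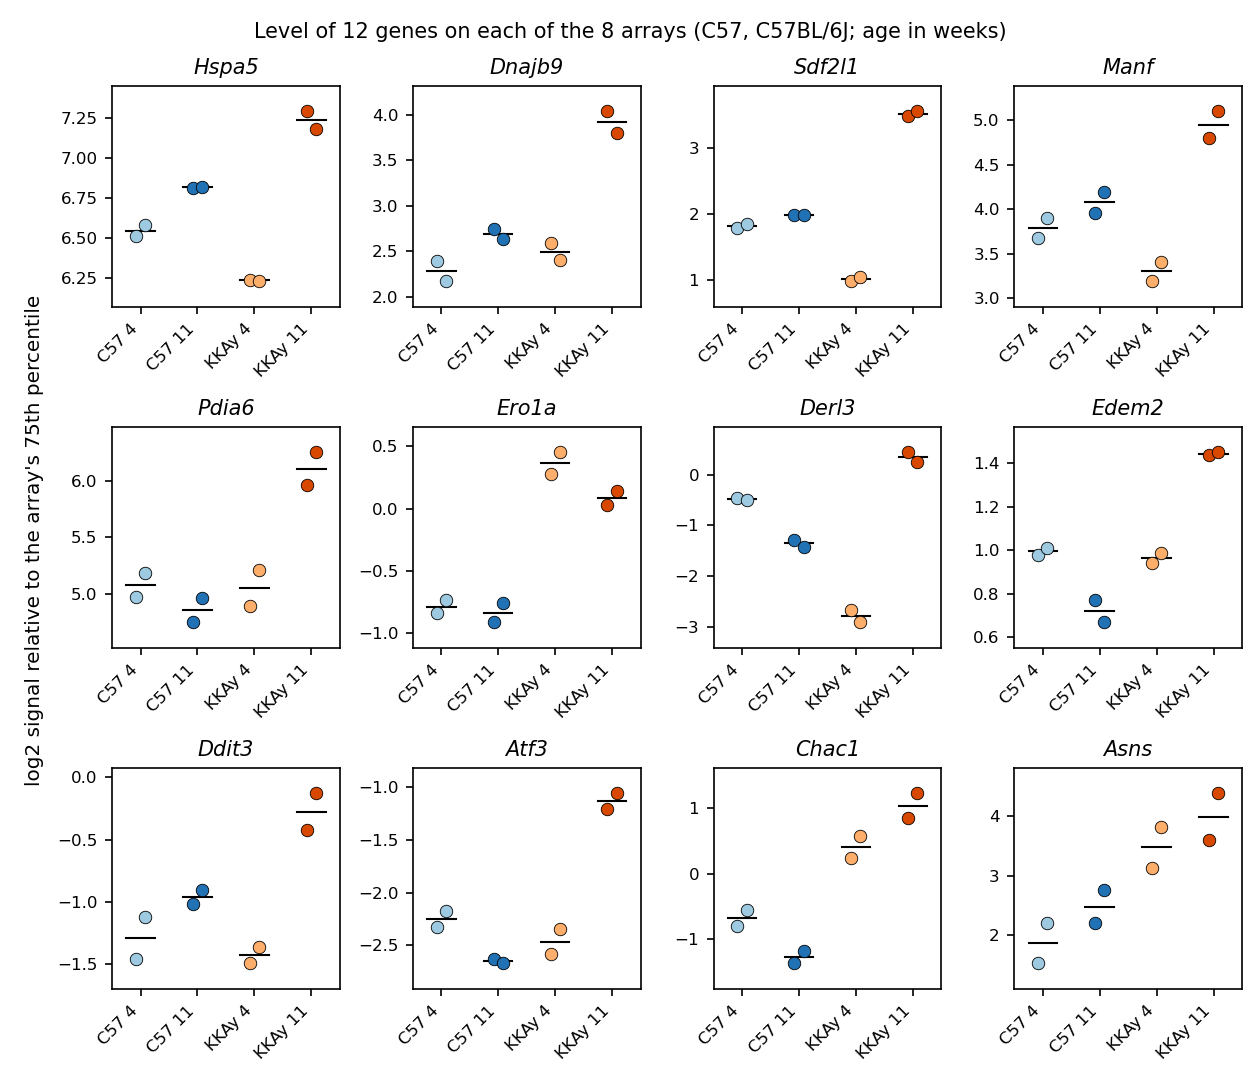
Level of 12 genes on each array, as log2 signal relative to the 75th percentile of the array (y axes differ and do not start at 0), for the 4 groups on the x axis; points are arrays and bars the means of 2. Hspa5, Sdf2l1, Manf and Derl3 are lowest in KKAy at 4 weeks and highest in KKAy at 11 weeks, whereas Ero1a and Asns are above C57BL/6J in KKAy at both ages.

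Disulfide enzymes were higher in KKAy at 11 weeks for 4 of 6 members, against 9.95% of all genes tested. Pdia6, an isomerase that also acts on Ern1, read 4.97 and 5.18 in C57BL/6J and 4.89 and 5.21 in KKAy at 4 weeks, and 4.75 and 4.96 against 5.96 and 6.25 at 11 weeks. The first 3 groups overlapped and the KKAy arrays of 11 weeks were 0.7 or more above them. The 11-week difference was 1.25 (SE 0.18, limma adjusted p = 0.00571), and the 4 probes of the gene gave 1.25 to 2.02. Its interaction was 1.28 (adjusted p = 0.0552).

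Pdia4 read 3.38 and 3.09 in C57BL/6J and 3.15 and 2.85 in KKAy at 4 weeks, and 3.26 and 3.02 against 4.03 and 3.76 at 11 weeks. KKAy at 11 weeks alone stood apart, higher by 0.76 (SE 0.18, limma adjusted p = 0.035). That call was kept without either KKAy array of 4 weeks and lost without any of the other 6 arrays (adjusted p up to 0.184). Ero1b, an oxidase that feeds disulfides to the isomerases, read 1.91 and 1.77 in C57BL/6J and 1.80 and 1.55 in KKAy at 4 weeks, and 2.32 and 2.12 against 3.10 and 2.68 at 11 weeks. The difference of 0.67 at 11 weeks was at the edge of the threshold (SE 0.18, adjusted p = 0.0493) and was kept only without replicate 2 of KKAy at 11 weeks (adjusted p = 0.0376, up to 0.226 without another).

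Ero1a, the other oxidase, differed by strain at both ages on its brightest probe. Its levels were -0.84 and -0.73 in C57BL/6J against 0.28 and 0.45 in KKAy at 4 weeks, and -0.91 and -0.76 against 0.03 and 0.14 at 11 weeks. All 4 KKAy arrays lay above all 4 C57BL/6J arrays. KKAy was 2.22-fold higher at 4 weeks (log2 difference 1.15, SE 0.12, limma adjusted p = 0.00239) and 1.89-fold higher at 11 weeks (0.92, SE 0.12, adjusted p = 0.00424). The second probe of the gene gave -0.42 and -0.18, and the mean of both probes was called at neither age, so the 2 probes do not give the gene 1 direction. Pdia3, which pairs with Calr and Canx, and P4hb, the classical isomerase, were higher by 0.40 and 0.35 at 11 weeks without passing (adjusted p = 0.27 and 0.113).

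Derl3 had the largest interaction of the 38 genes. It encodes a Derlin, a membrane protein of the channel through which misfolded chains leave for the cytosol, and its probe lies at chr10:75339474-75339533 (mm8). Levels were -0.46 and -0.50 in C57BL/6J and -2.68 and -2.91 in KKAy at 4 weeks, and -1.29 and -1.42 against 0.44 and 0.25 at 11 weeks. No 2 groups overlapped, and KKAy moved from lowest to highest. KKAy was 4.98-fold lower at 4 weeks (log2 difference -2.32, SE 0.13, limma adjusted p = 0.000344) and 3.24-fold higher at 11 weeks (1.70, SE 0.13, adjusted p = 0.000639). The interaction was 4.01 (SE 0.18, adjusted p = 0.00159), and all 3 calls held with any 1 array left out.

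The relatives of Derl3 did not share its size of change. Derl1 differed by 0.11 at 4 weeks and -0.03 at 11 weeks, and Derl2 by 0.24 and 0.62, none of them called (adjusted p 0.169 to 0.961). Edem2, a mannosidase-like protein that marks misfolded glycoproteins, read 0.98 and 1.01 in C57BL/6J and 0.94 and 0.99 in KKAy at 4 weeks, and 0.77 and 0.67 against 1.44 and 1.45 at 11 weeks. Both KKAy arrays of 11 weeks were above, and both C57BL/6J arrays of that age below, the 4 arrays of 4 weeks. The 11-week difference was 0.72 (SE 0.09, limma adjusted p = 0.00432) and the interaction 0.75 (SE 0.13, adjusted p = 0.0432), of which the second was lost without any 1 array (adjusted p 0.111 to 0.212).

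Edem1, its homologue, read 2.83 and 2.70 in C57BL/6J and 2.69 and 2.60 in KKAy at 4 weeks, and 3.05 and 3.03 against 3.69 and 3.62 at 11 weeks. KKAy at 11 weeks was highest, by 0.62 over C57BL/6J (SE 0.10, limma adjusted p = 0.00955). Syvn1 (Hrd1), the ubiquitin ligase at the exit channel, read 4.65 and 4.87 in C57BL/6J and 4.72 and 4.95 in KKAy at 4 weeks, and 5.23 and 5.37 against 6.01 and 6.28. The 4-week groups overlapped, the 11-week groups did not, and KKAy was higher by 0.84 (SE 0.16, adjusted p = 0.0148). Leaving out either C57BL/6J array of 11 weeks ended both calls (adjusted p up to 0.0768 for Edem1 and 0.105 for Syvn1), and for Syvn1 so did leaving out replicate 2 of KKAy at 11 weeks. Sel1l, the partner of Syvn1, differed by 0.27 at 11 weeks, and Herpud1, a scaffold of the same complex, by 0.81, neither of them called (adjusted p = 0.537 and 0.0682).

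**Figure D3:**
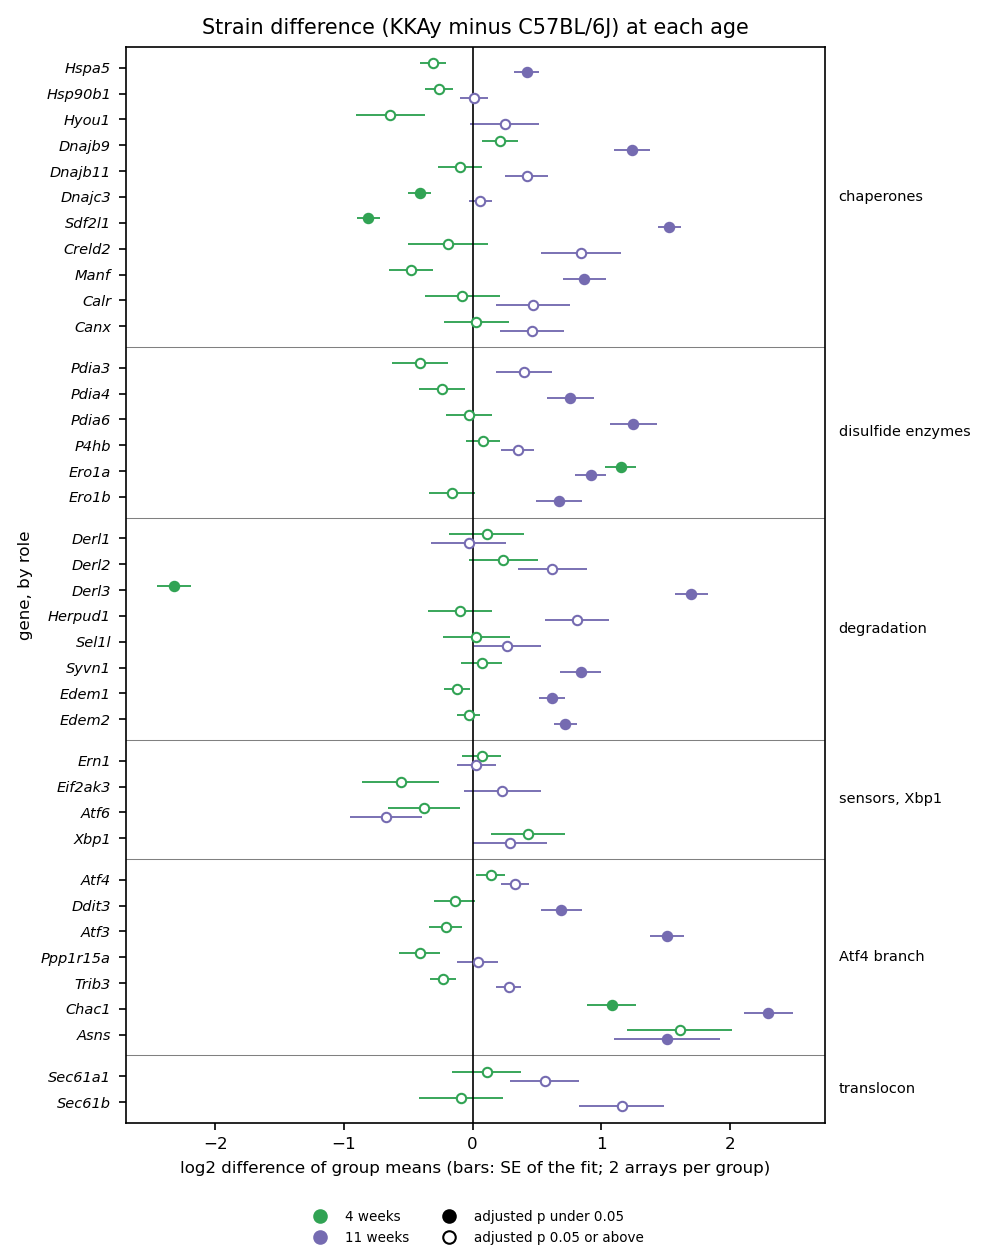
Strain difference in log2 units (x axis, KKAy minus C57BL/6J) for each of the 38 genes (y axis, by role) at 4 weeks (green) and 11 weeks (purple), with bars for the SE of the fit and filled points for adjusted p under 0.05. At 11 weeks 16 genes are filled and all 16 lie right of 0; at 4 weeks Derl3, at -2.32, lies farthest left.

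None of the sensors passed between strains at either age in the limma fit without a block, and neither did Xbp1. The count was 0 of 4 at 4 weeks and 0 of 4 at 11 weeks, also at an unadjusted p under 0.05. Of all genes tested, 15.4% were called in either direction at 4 weeks, and 9.95% higher and 11.5% lower at 11 weeks. For 4 genes a count of 0 is thus near the background. With replicate number as a block, a limma fit with more calls over all genes, Atf6 was lower in KKAy at both ages (adjusted p = 0.0174 and 0.00225). There Xbp1 was higher at both (0.00698 and 0.0178) and Eif2ak3 lower at 4 weeks (0.0096). Ern1 read -1.98 and -1.78 in C57BL/6J and -1.97 and -1.65 in KKAy at 4 weeks, and -1.66 and -1.56 against -1.65 and -1.51 at 11 weeks. Its groups overlapped at both ages, and the differences were 0.07 and 0.03 (SE 0.15 each). Eif2ak3 read -0.16 and -0.49 in C57BL/6J and -0.62 and -1.16 in KKAy at 4 weeks, and 0.12 and -0.24 against 0.50 and -0.16 at 11 weeks. Its replicates differed by 0.3 or more in every group, and the differences were -0.56 and 0.23 (SE 0.30 each).

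Atf6 was lower in KKAy by value at both ages on its brightest probe, at 1.26 and 1.72 against 0.88 and 1.35 at 4 weeks and 1.60 and 1.88 against 0.79 and 1.35 at 11 weeks. The 11-week groups did not overlap, yet the difference of -0.67 did not pass (SE 0.28, limma adjusted p = 0.154). Its second probe gave 0.13 at 4 weeks and -0.47 at 11 weeks. Xbp1, the factor downstream of Ern1, read 3.62 and 3.16 in C57BL/6J and 4.04 and 3.60 in KKAy at 4 weeks, and 4.01 and 3.64 against 4.41 and 3.83 at 11 weeks. The groups overlapped at both ages, and the differences were 0.43 and 0.29 (SE 0.29 each). The array reads total transcript, so splicing of Xbp1, cutting of Atf6 and phosphorylation by Eif2ak3 were not measured.

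In the Atf4 branch, 4 of 7 genes were higher in KKAy at 11 weeks, against 9.95% of all genes tested. Atf4 itself, the transcription factor of the branch, read 1.55 and 1.51 in C57BL/6J and 1.72 and 1.63 in KKAy at 4 weeks, and 2.00 and 1.83 against 2.28 and 2.22 at 11 weeks. KKAy lay above C57BL/6J at each age without overlap, but neither the 0.14 nor the 0.33 passed (SE 0.11 each, limma adjusted p = 0.486 and 0.0773). Atf4 is regulated largely through its translation, which the array did not measure.

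Chac1, a glutathione-degrading enzyme induced by Atf4, had the largest strain difference at 11 weeks. Its level was -0.80 and -0.56 in C57BL/6J and 0.24 and 0.57 in KKAy at 4 weeks, and -1.36 and -1.17 against 0.85 and 1.22 at 11 weeks. All 4 KKAy arrays lay above all 4 of C57BL/6J. KKAy was 2.12-fold higher at 4 weeks (log2 difference 1.08, SE 0.19, limma adjusted p = 0.0154) and 4.91-fold higher at 11 weeks (2.30, SE 0.19, adjusted p = 0.000882), while the interaction of 1.21 did not pass (adjusted p = 0.0774). The 4-week call was lost without either C57BL/6J array or replicate 2 of KKAy at that age (adjusted p up to 0.0922).

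Atf3, a stress-induced transcription factor, was higher in KKAy at the older age. It read -2.33 and -2.18 in C57BL/6J and -2.58 and -2.35 in KKAy at 4 weeks, and -2.63 and -2.67 against -1.21 and -1.06 at 11 weeks. Both KKAy arrays of 11 weeks stood 0.97 or more above the other 6. The 11-week difference was 1.51 (SE 0.13, limma adjusted p = 0.00094) and the interaction 1.72 (SE 0.18, adjusted p = 0.0101). The interaction was lost without replicate 2 of C57BL/6J at 4 weeks or either C57BL/6J array of 11 weeks (adjusted p up to 0.0766).

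Ddit3 (CHOP), a pro-apoptotic factor of the branch, read -1.46 and -1.12 in C57BL/6J and -1.49 and -1.36 in KKAy at 4 weeks, and -1.02 and -0.90 against -0.42 and -0.13 at 11 weeks. KKAy at 11 weeks was highest, by 0.69 (SE 0.16, limma adjusted p = 0.0332). The call was lost without either C57BL/6J array of 11 weeks, either KKAy array of 4 weeks or replicate 2 of KKAy at 11 weeks (adjusted p up to 0.181).

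Asns, the asparagine synthetase gene and a target of Atf4 in amino acid shortage, had a strain difference of like size at both ages. Its levels were 1.53 and 2.21 in C57BL/6J against 3.13 and 3.82 in KKAy at 4 weeks, and 2.20 and 2.76 against 3.60 and 4.38 at 11 weeks. The strains did not overlap at either age, but replicates differed by 0.56 to 0.78. The difference was 1.61 at 4 weeks (SE 0.41, limma adjusted p = 0.0504) and 1.51 at 11 weeks (SE 0.41, adjusted p = 0.0483). The 11-week call was kept only without replicate 1 of KKAy at 11 weeks (adjusted p = 0.0493, up to 0.236 without another array).

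Ppp1r15a (GADD34), which restores translation by removing the phosphate that Eif2ak3 adds, read 0.53 and 0.37 in C57BL/6J and 0.14 and -0.06 in KKAy at 4 weeks, and 0.45 and 0.33 against 0.60 and 0.25 at 11 weeks. It was lower by value in KKAy at 4 weeks, overlapped at 11 weeks, and was not called (differences -0.41 and 0.04, SE 0.16 each). Trib3, a pseudokinase induced by Atf4 and Ddit3, read 1.72 and 1.80 in C57BL/6J and 1.48 and 1.57 in KKAy at 4 weeks, and 1.59 and 1.63 against 1.89 and 1.89 at 11 weeks. The groups did not overlap, but the differences of -0.23 and 0.28 (SE 0.10 each) did not pass.

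The channel subunits Sec61a1 and Sec61b were higher by 0.56 and 1.16 at 11 weeks without passing (limma adjusted p = 0.217 and 0.0575). Sec61b read 5.73 and 6.37 in KKAy at 11 weeks and 4.55 to 5.19 on the other 6 arrays.

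The interaction, tested for each gene, lay above 0 by value for 32 of the 38 and below 0 for 6. At a limma adjusted p under 0.05 it was above 0 for 5 (Derl3, Sdf2l1, Atf3, Manf and Edem2) and below 0 for 0, against 2.06% and 1.75% of all genes tested. At an unadjusted p under 0.05 it was above 0 for 19 and below 0 for 0, against 9.13% and 8.75%. The median was 0.73, against 0.01 over all genes, and 0.51 on spike-in scaling, which moved that of all genes to -0.21. With 1 array left out the count was 2 or 3: 2 without replicate 2 of C57BL/6J at 4 weeks or either C57BL/6J array of 11 weeks, and 3 without any of the other 5. Derl3 and Sdf2l1 were called in each of these fits.

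The age comparison within each strain uses the same 8 arrays as the strain comparisons, and age goes with slide. In KKAy 19 of the 38 genes were higher at 11 than at 4 weeks and 0 lower, against 7.89% and 10.7% of all genes tested, with a median of 0.75 against 0.02. At an unadjusted p under 0.05, 27 were higher and 0 lower, against 15.1% and 17.4%. In C57BL/6J 0 were higher and 1, Derl3, lower, against 1.89% and 6.48% of all genes, with a median of 0.17 against 0.05. At an unadjusted p under 0.05, 5 were higher and 4 lower there, against 7.64% and 13.0%, near the background.

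Against 7.89% of all genes tested, 8 of 11 chaperones rose with age in KKAy. Besides Sdf2l1, by 2.50 (SE 0.09, limma adjusted p = 0.000133), Manf, by 1.64, Dnajb9, by 1.43, Hspa5, 2-fold, and Dnajc3, by 0.49, they included Hyou1, an Hsp110-type partner of BiP, by 1.12 (SE 0.27), Dnajb11, a J-domain co-chaperone, by 0.80 (SE 0.17), and Creld2 by 1.43 (SE 0.31). Hyou1 read 1.50 and 2.11 in KKAy at 4 weeks and 2.68 and 3.17 at 11 weeks. Hsp90b1, Calr and Canx were not called, with differences of 0.29, 0.69 and 0.50.

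Pdia4, Pdia6 and Ero1b rose in KKAy by 0.90, 1.06 and 1.21. Of the degradation genes Derl3 rose 8.81-fold (log2 difference 3.14, SE 0.13, limma adjusted p = 0.000161), Syvn1 by 1.31, Edem1 by 1.01 and Edem2 by 0.48. In C57BL/6J Derl3 fell by 0.87 over the same ages (SE 0.13, adjusted p = 0.0133), a call that ended without any 1 of the 4 C57BL/6J arrays (adjusted p up to 0.115). Of the Atf4 branch, Atf3 rose in KKAy by 1.33, Ddit3 by 1.15, Atf4 by 0.57 and Trib3 by 0.37, whereas Chac1 (0.63) and Asns (0.51) were not called. None of the sensors was called with age in either strain (0 of 4 each), and at an unadjusted p under 0.05 Eif2ak3 passed in KKAy, with 1.06. Of all genes tested 7.89% were called higher and 10.7% lower with age in KKAy, and 1.89% and 6.48% in C57BL/6J. For 4 genes a count of 0 is near these shares. With replicate number as a block Ern1 and Xbp1 were called higher at 11 weeks in both strains, and Eif2ak3 in KKAy (limma adjusted p = 0.0012).

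On spike-in scaling, which put the median age difference of all genes in KKAy at -0.19, the count of 19 was 13. Calls over all genes also fell in each fit of this paragraph. The count of 19 became 8 on the 4 KKAy arrays alone, where 742 of all genes were called in either direction, against 3176 over 8 arrays. It was 10 without replicate 1 of KKAy at 4 weeks, and 11 without replicate 2 of KKAy at either age. Hspa5, Sdf2l1, Manf, Dnajb9, Derl3, Syvn1, Edem1, Ddit3 and Atf3 kept their call without any 1 array.

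**Figure D4:**
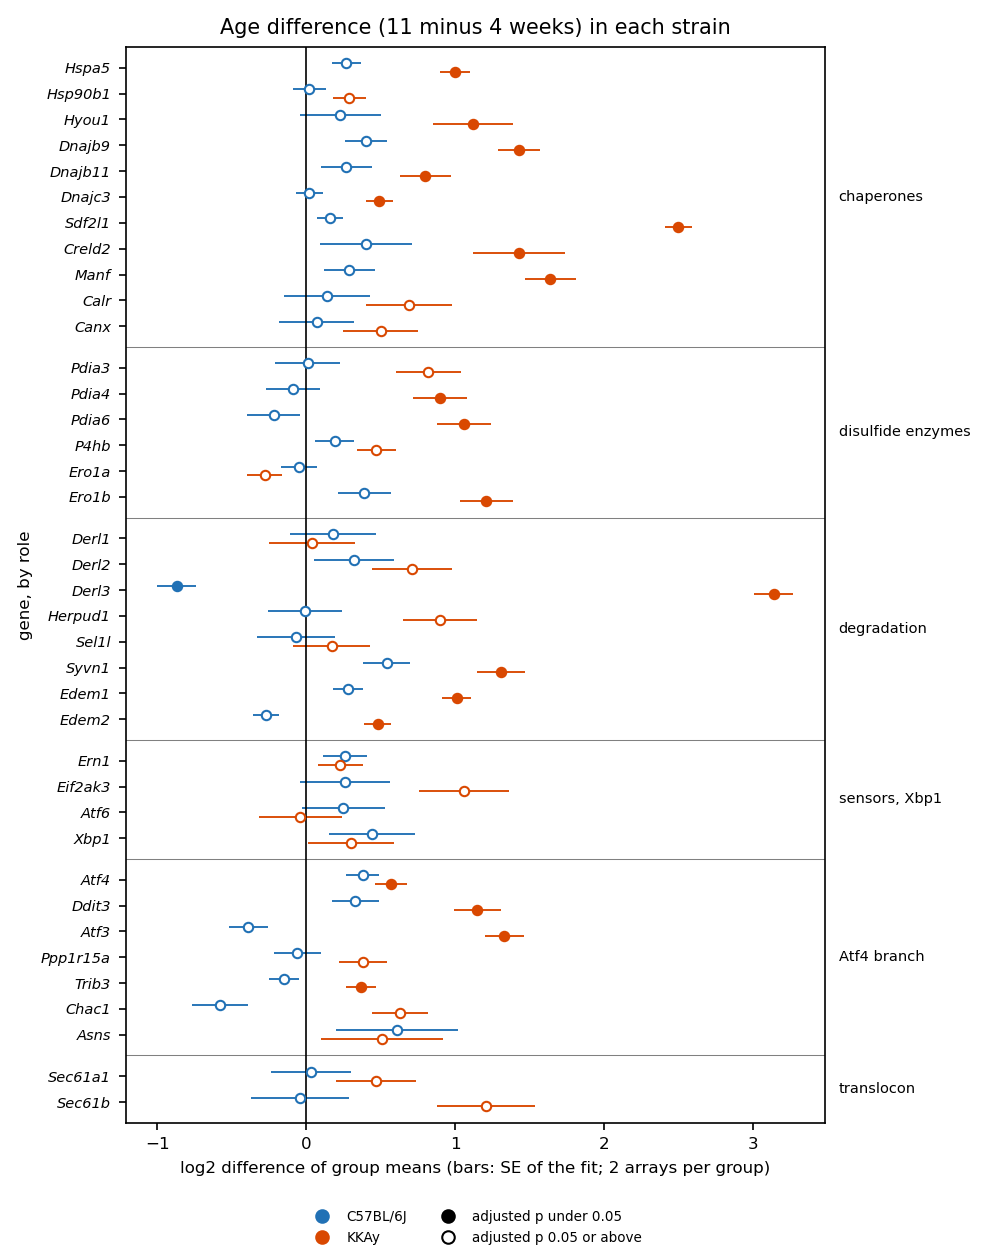
Age difference in log2 units (x axis, 11 minus 4 weeks, which is also slide 2 minus slide 1) for each of the 38 genes (y axis, by role) in C57BL/6J (blue) and KKAy (orange), with bars for the SE of the fit and filled points for adjusted p under 0.05. In KKAy 19 genes are filled and all 19 lie right of 0; in C57BL/6J Derl3 alone is filled, at -0.87.

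Members with and without an ERSE match were set side by side. At 11 weeks 5 of the 10 with a match were higher in KKAy (median 0.57), and 10 of the 23 without one (median 0.62), against 9.95% of all genes. With age in KKAy 7 of 10 rose (median 1.03) and 10 of 23 (median 0.71), against 7.89%. The largest ERSE-bearing difference was Derl3, whose match on the opposite strand is shown above, and the smallest was Hsp90b1, which has 2 matches and a difference of 0.01. Sdf2l1, with no match in this window, had the second largest interaction. The difference between these groups was not tested.

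Other genes of the same compartment were counted from lists that hold none of the 38. Of all genes tested 9.95% were higher in KKAy at 11 weeks and 11.5% lower. Of 24 genes of translocation, signal peptide cleavage and glycan transfer, 8 were higher in KKAy at 11 weeks and 1 lower (median 0.44). Spcs3, a subunit of signal peptidase, read 2.93 and 2.89 in C57BL/6J against 4.19 and 4.10 in KKAy at 11 weeks, higher by 1.23 (SE 0.10, limma adjusted p = 0.000789). It was also higher at 4 weeks, by 0.50 (SE 0.10, limma adjusted p = 0.0221). At 11 weeks Ssr3, of the translocon-associated complex, was higher by 0.79, and Srp54a, of the signal recognition particle, was lower (-0.77). Of 21 other folding and glycan quality control genes 6 were higher at that age and 0 lower (median 0.41). Uggt1, the folding sensor of glycoproteins, was higher by 0.96, the reductase Dnajc10 by 0.81 and the sulfhydryl oxidase Qsox1 by 0.78, and the first 2 were also higher at 4 weeks, by 0.81 and 0.61.

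Fewer genes of the neighbouring steps passed at 11 weeks. Of 19 other degradation genes 2 were higher (Fam8a1 and Rnf5) and 1 lower (Nploc4), with a median of 0.16. Of 21 genes of transport between endoplasmic reticulum and Golgi 2 were higher (Sec23b and Tmed2) and 1 lower (Sec23a), with a median of 0.14. Of 16 other sensors and regulators 2 were higher (Tmbim6 and Bax) and 2 lower (Creb3 and Map3k5), with a median of 0.01. Against 9.95% of all genes higher and 11.5% lower, these counts lay near the background.

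Of 29 measured genes among the other eIF2 kinases and the partners and targets of Atf4, 4 were higher and 2 lower at 11 weeks (median 0.14), near the 9.95% and 11.5% of all genes. At 4 weeks 4 were higher and 4 lower, against 15.4% of all genes called in either direction. Gdf15, a stress-induced hormone, read 0.13 and 0.08 in C57BL/6J and -0.51 and -0.39 in KKAy at 4 weeks, and 0.56 and 0.60 against 2.33 and 2.41 at 11 weeks. It was thus lowest in KKAy at 4 weeks and highest in KKAy at 11 weeks, with differences of -0.56 and 1.80 and an interaction of 2.35 (SE 0.14, limma adjusted p = 0.00234). Mthfd2, a mitochondrial folate enzyme, was higher at 11 weeks by 2.18 (SE 0.13, adjusted p = 0.000332). Ddit4, an inhibitor of mTORC1 signalling, was lower at 11 weeks by a log2 difference of -2.62 (SE 0.27, adjusted p = 0.00174). Fgf21, a hepatic hormone, and Psat1, of serine synthesis, were higher at 4 weeks, by 1.22 and 0.99, whereas Phgdh, also of serine synthesis, Cth, of cysteine synthesis, and Ddit4 were lower (-0.86, -0.66 and -1.61).

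Heat shock genes of the cytosol and mitochondria went the other way by count. Of 13 measured, 0 were higher at 11 weeks and 4 lower (Hspa1a, Hspb1, Hsp90ab1 and Hspa4), with a median of -0.41. Of all genes tested 9.95% were higher and 11.5% lower, so for a list this short 0 higher is near the background. Hspa1a, the inducible cytosolic Hsp70, read 1.66 and 1.36 in C57BL/6J against 0.24 and -0.03 in KKAy at 11 weeks, lower by a log2 difference of -1.41 (SE 0.16, limma adjusted p = 0.00281). At 4 weeks it was higher in KKAy, by 0.78 (SE 0.16, limma adjusted p = 0.0276), and its interaction was -2.18 (SE 0.23, adjusted p = 0.0103). Of 12 immediate early genes, which respond to handling and stress of tissue, 1 was higher (Ier2) and 1 lower (Egr1) at 11 weeks, near the background. At 4 weeks 1 was higher and 5 lower, against 15.4% of all genes called in either direction.

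**Figure D5:**
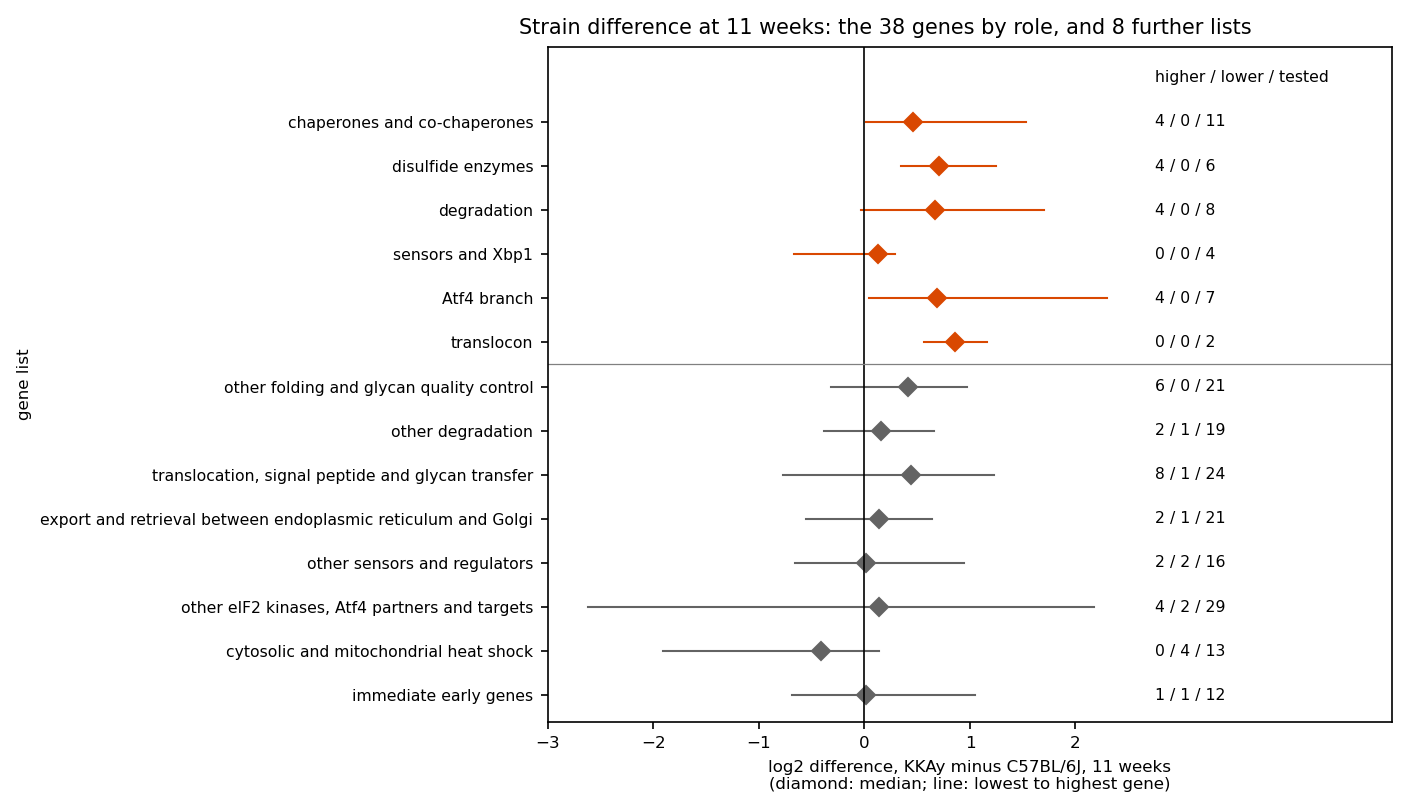
Strain difference at 11 weeks in log2 units (x axis, KKAy minus C57BL/6J) for the 6 roles of the 38 genes (orange) and 8 further gene lists (grey) on the y axis, with the median as a diamond, the lowest and highest gene as the ends of the line, and the counts called higher, called lower and tested at the right. Medians of the folding, disulfide, degradation, Atf4 and translocon roles lie between 0.46 and 0.86, and that of the heat shock list at -0.41.

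Cell types with a large endoplasmic reticulum were checked by their markers. Of 12 exocrine pancreas markers 4 passed the filter, and Cpa1, Cela3b, Pnlip, Prss2, Pdia2 and Cpb1 were well above background on 0 arrays. The summed signal of the list was 6.89 to 8.33 times the 75th percentile in C57BL/6J and 6.09 to 6.3 in KKAy at 4 weeks, and 6.62 to 6.93 against 10.5 to 11 at 11 weeks, so it was lowest in KKAy at 4 weeks and highest in KKAy at 11 weeks. Most of this sum was Amy2, an amylase gene, which read 2.56 and 2.62 against 3.28 and 3.34 at 11 weeks and was higher by 0.72 (SE 0.12, limma adjusted p = 0.0096). Cela2a, an elastase gene, had another order. It was lower in KKAy at 4 weeks (-1.65, limma adjusted p = 0.00506) and read -5.42 and -5.01 in KKAy at 11 weeks, below every other array. It was well above background on only 5 of the 8 arrays, so the order of its low values is uncertain. Ctrb1 and Cel, well above background on all 8, were not called between strains at either age. Of 10 plasma and B cell markers 8 passed, with a summed signal of 25.3 to 25.6 and 18.6 to 19.3 at 4 weeks, and 24.8 to 25.8 and 15.8 to 16.2 at 11 weeks, lower in KKAy. Most of this sum was Sdc1, which hepatocytes also express. At 11 weeks those lower in KKAy included Sdc1, Cd79b and Mzb1. Jchain, the joining chain of secreted antibodies, was lower in KKAy at 4 weeks (-0.46, limma adjusted p = 0.0236) and higher at 11 weeks (0.55, adjusted p = 0.0105), with an interaction of 1.01 (adjusted p = 0.0178), so it was lowest and highest in the same groups as Derl3 and Sdf2l1. Tnfrsf17 was well above background on 0 arrays. Their part in the differences above was not tested.

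Macrophage and Kupffer cell markers also moved with the groups. At 4 weeks 9 of 9 were lower in KKAy, with a summed signal of 56.1 to 64 against 151 to 181, and at 11 weeks 6 of 9, with 34.5 to 36.7 against 61.5 to 67.5. T and natural killer cell markers were lower for 7 of 10 at 4 weeks and 5 of 10 at 11 weeks, with a summed signal of 0.93 to 1.04 against 2.4 to 2.77 and of 0.571 to 0.603 against 0.892 to 0.936. Stellate cell and fibroblast markers were lower for 3 of 10 and 6 of 10 and higher for 0 and 1, with 51.8 to 59.9 against 63.5 to 72.4 and 28.1 to 33.9 against 48.9 to 53.3. Neutrophil markers were highest in KKAy at 11 weeks, with a summed signal of 5.81 to 8.07 against 1.38 to 1.72, and 3.03 to 4.02 against 2.01 to 2.61 at 4 weeks. At 11 weeks 2 of the 5 tested were higher, S100a8 by 1.58 and S100a9 by 2.32. Of all genes tested, 15.4% were called in either direction at 4 weeks, and 9.95% higher and 11.5% lower at 11 weeks. Of 9 listed neutrophil genes 8 were on the array and 2 were well above background on 0 arrays. Their part in the differences above was not tested.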

How the data were processed

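Liver RNA of 8 samples was hybridised to 1-colour Agilent arrays with 41174 probes. Per the file headers and the submitters' processing notes, the deposited spot intensity is the processed signal of Agilent Feature Extraction 9.5.1.1, already corrected for background and for trends within an array. The deposited value table holds log2 values equal, within 0.001, to log2 processed signal minus 1 constant per array for 99.5% or more of probes, with medians of -3.963 to -3.674 and no centring across arrays; it served as an alternative. No column of it belonged to another sample (0 such columns).

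Repeated spots were averaged, control spots and outlier-flagged spots (59 to 89 per array) left out, and the 75th percentile of an array subtracted from its log2 signals. A probe stayed if 1 group or more had it well above background on both of its arrays (25319 probes), and the brightest probe stood for a gene (17049 genes). Names came from RefSeq tables of GRCm38.p6 by accession (24375 probes), symbol (6301) or older symbol (2426), or from the files (8072). Group means were fitted over all 8 arrays with limma 3.58.1 in R 4.3.3 (lmFit, eBayes; 4 residual and 1.926 prior degrees of freedom), with Benjamini-Hochberg adjustment over all genes, at 0.05. Strain, age and interaction contrasts share arrays. The number of arrays limits the precision. The procedure was tested on simulated probe values with noise drawn independently for each array. In the real data arrays of the same replicate number deviated together, which that test did not cover.

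The 38 genes, the further lists, the motifs and the tests were chosen with earlier results of these data known. Values on every array are given for genes called between strains or in the interaction, for the sensors and for the Atf4 branch; from each further list up to 3 genes per comparison with the smallest adjusted p were open to naming, and Hspa4, Nploc4, Sec23a, Map3k5, Bax, Egr1 and the called markers complete counts of 5 or fewer, some of them named after their values were seen. Alternatives were normexp background, quantile normalization, scaling on 7 spike-in probes, the deposited table, no filter, a filter on all arrays, the mean of probes, 4 arrays alone, a block for replicate number, and each array left out in turn. Figures were drawn with matplotlib 3.10.9.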

Additional observations from a re-analysis of the deposited data

Results flagged for a closer look

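For 5 of the 38 genes the strain difference at 11 weeks differed from that at 4 weeks by the interaction test of limma (Benjamini-Hochberg adjusted p under 0.05). Derl3 had an interaction of 4.01 (SE 0.18, adjusted p = 0.00159), with KKAy below C57BL/6J on both arrays at 4 weeks and above it on both at 11 weeks. Sdf2l1 had 2.34 (SE 0.13, adjusted p = 0.00204), also with KKAy below at 4 and above at 11 weeks on both arrays. Atf3 had 1.72 (SE 0.18, adjusted p = 0.0101), Manf 1.35 (SE 0.24, adjusted p = 0.0414) and Edem2 0.75 (SE 0.13, adjusted p = 0.0432). These 5 of 38 compare with 2.06% of all genes tested above 0. Derl3 and Sdf2l1 kept the call with any 1 array left out, Atf3 with 5 of the 8 left out in turn, and Manf and Edem2 with none.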

How the results depend on the processing

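Over all alternatives, 900 values of single genes were called in the reported fit or in the alternative, and 0 of them had another sign. For many of them the sign was fixed in advance. The block, 4 arrays alone and leaving out an array of a group not compared do not change the difference of group means. Of 777 values of differences called in the reported fit, 190 lost the call, and 123 others gained one. For genes higher in KKAy at 11 weeks, 16 in the reported fit, the count was 8 with no filter, 9 on 4 arrays alone and 8 to 13 with 1 array left out. It was 18 on spike-in scaling and 18 with the mean of probes. For the age difference in KKAy, 19 higher, the count was 11 with no filter, 8 on 4 arrays alone and 10 to 16 with 1 array left out. There it was 13 on spike-in scaling, 21 with the filter on all arrays and 22 with the mean of probes. For the interaction, 5, it was 3 on spike-in scaling, 2 with no filter, 9 with the filter on all arrays, 8 with the mean of probes and 2 to 3 with 1 array left out. At 4 weeks spike-in scaling left 1 gene lower, and the count higher was 1 to 3 with 1 array left out. With age in C57BL/6J, 1 gene was higher on quantile normalization, 0 were lower with no filter, and 0 to 1 lower with 1 array left out. The deposited table gave the same calls for the 38 genes. Over all genes, calls of the 11-week strain difference fell from 3660 to 2126 with no filter and to 2120 on 4 arrays alone. Those of the age difference in KKAy fell from 3176 to 1463 and 742, and those of the interaction from 650 to 142 with no filter. Calls over all genes also fell with any 1 array left out.

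The replicate numbers of the groups deviated together (correlation of the replicate difference between groups 0.530 to 0.676 over 17038 genes, all 6 pairs of groups), but no label says what they share and there are only 2. On both slides replicate 1 lay at positions 1 and 3 and replicate 2 at positions 2 and 4. Replicate 1 had the higher 75th percentile of signal in each group. At 4 weeks it was 1192 against 673 in C57BL/6J and 877 against 609 in KKAy. At 11 weeks it was 655 against 615 and 646 against 476. The part of position and signal in the shared deviation was not tested. With replicate number as a block, 6 genes were higher and 13 lower at 4 weeks, against 21.4% and 22.4% of all genes in that fit, and 29 higher and 1 lower at 11 weeks, against 27.4% and 27.6%. With age, 14 were higher and 5 lower in C57BL/6J (16.4% and 17.4% of all genes) and 34 higher and 1 lower in KKAy (27.4% and 26.0%), and 29 had an interaction above 0 (16.3%). In that fit Atf6 was lower in KKAy at both ages (adjusted p = 0.0174 and 0.00225), Xbp1 higher at both (0.00698 and 0.0178) and Eif2ak3 lower at 4 weeks (0.0096). Without it the fit counts that shared deviation as spread.

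With 2 arrays per group and no block, differences of the size of an SE of 0.3 or more, as for Asns (0.41), Creld2, Eif2ak3 and Sec61b, were poorly resolved. With the block the SE of the strain difference of Eif2ak3 was 0.10 at each age. All 38 genes were well above background on every array.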
